A study of Mus musculus with 6 samples.

Results

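The genes described here make glycogen or bind it, and were chosen by name: Ugp2, Gys1, Gys2, Gyg, Gbe1, Stbd1, Epm2a and Nhlrc1. All 8 were found among the 34714 gene symbols whose RNA-seq reads were counted in the gastrocnemius (Gas) muscle of 3 wild-type (WT) and 3 miR-92b knockout (M92KO) mice, 8 weeks old and without treatment. The M92KO mice carried the deletion in every tissue, on the C57BL/6JGpt background (allele Mir-92bem22Cd549), and were compared with age-matched C57BL/6 mice that are not described as littermates. The study used male mice and gives 3 mice per genotype. It asked how the loss of miR-92b changes glucose metabolism in muscle, with glycogen as one of its readouts. Mir92b itself was not analysed here, so the genotype of each library rests on its label. The labels give free access to food and not the feeding state at collection. The study's methods describe an overnight fast before tissue was taken, in a passage on mice after treatment, and do not say whether it held for the untreated mice sequenced here.

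Muscle stores glucose as glycogen, a branched polymer that fibres draw on during contraction. UDP-glucose pyrophosphorylase, encoded by Ugp2, joins glucose phosphate to UTP and so makes UDP-glucose, the donor of every glucose unit that is added. Glycogenin, encoded by Gyg, starts a chain on itself. Glycogen synthase, encoded by Gys1 in muscle and by Gys2 in liver, lengthens the chain, and the branching enzyme, encoded by Gbe1, moves short stretches of it to form side chains. Stbd1 encodes a protein that binds glycogen and tethers it to membranes. Laforin, encoded by Epm2a, is a glycogen phosphatase, and malin, encoded by Nhlrc1, is a ubiquitin ligase that works with laforin. Loss of either protein causes Lafora disease, in which poorly branched glycogen builds up.

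Library totals ran from 38246649 to 48209846 counts in WT and from 33160508 to 37019640 counts in M92KO muscle, and the 2 ranges did not overlap. Values are CPM, the counts of a gene relative to the total of its library after TMM scaling, whose factors lay between 0.981 and 1.03. A floor of 3 counts corresponded to 0.0629 to 0.0916 CPM, depending on the library, and takes account of counting error alone. After removal of genes with low counts, 15788 genes were compared with edgeR's quasi-likelihood test. None of them (0 genes, 0%) reached an adjusted p-value (Benjamini-Hochberg) under 0.05 in edgeR, whereas 322 of the 13335 genes to which DESeq2's Wald test gave an adjusted p-value (2.41%) did so. At an unadjusted p-value under 0.05, the threshold of the study, edgeR gave 1955 genes (12.4%), of which 44.1% were higher in M92KO muscle. The study's own steps, rerun here on all 34714 genes without a filter, gave 2287 genes, of which 54.4% were higher. This rerun did not give the same number of genes as the study reports. The 9 fast-fibre markers were all detected, with summed levels of 108305 to 122214 CPM in WT and 106679 to 118579 CPM in M92KO muscle, ranges that overlapped. The summed level of 6 fibroblast markers was 1709 to 2270 CPM in WT and 1151 to 1597 CPM in M92KO muscle. These ranges did not overlap, and 3 of the 6 fibroblast markers were lower at an unadjusted p-value under 0.05. Of 6 Schwann cell markers, 3 were also lower at that threshold, as were 6.92% of all genes tested, and 1 had a positive log2 fold change. The summed Schwann cell level was 131.9 to 180.9 CPM in WT and 132.3 to 138.2 CPM in M92KO muscle, ranges that overlapped. Fewer cells of a type and less RNA per cell cannot be told apart in whole muscle, and the part of these cells in the differences of the glycogen genes was not tested.

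The deleted gene gives 2 mature miRNAs, and their sequences are shown because the seed, in capitals (bases 2 to 8), sets which messages each can pair with. Both come from RefSeq (GRCm38.p6), on the minus strand of chromosome 3.
miR-92b-3p: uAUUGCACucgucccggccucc
miR-92b-5p: aGGGACGGgacguggugcaguguu
miR-92b-3p lies at chr3:89227126-89227147 and miR-92b-5p at chr3:89227165-89227188. A full match to the miR-92b-3p seed in a message, with an A opposite base 1, reads GTGCAATA (8mer). The annotated 3′-UTRs of the 8 genes were searched on the message strand for such 8mers, for 7mers, which lack either the A or the match to base 8, and for 6mers (bases 2 to 7). An 8mer for miR-92b-3p was found in 2 of the 8 genes, Ugp2 and Epm2a. For comparison, 389 of 13476 tested genes whose annotated 3′-UTR had 20 bases or more (2.89%) held an 8mer, and 3688 of them (27.4%) held a match of any of these lengths. The windows are printed 5′ to 3′ on the message strand with the match in capitals. They are shown because the first 2 genes carry the same full match, and because they also hold the nearest 6mer of Ugp2 and the match to miR-92b-5p found in Gys1.
Ugp2 8mer: ttcctcttaaaGTGCAATAttacttaacct
Ugp2 6mer: aaagtagttttcTGCAATgagcttttagtc
Epm2a 8mer: tagcctcccctGTGCAATAcagctagttgt
Gys1 7mer: acgaccagcctCCGTCCCgccgtcgccctc
On GRCm38 the first window is chr11:21321774-21321803 (minus strand), the second chr11:21321862-21321891 (minus strand), the third chr10:11459332-11459361 (plus strand) and the fourth chr7:45455061-45455090 (plus strand). The 8mer of Ugp2 begins at base 230 after the stop codon in a 3′-UTR of up to 884 bases, and is in both coding transcripts with an annotated 3′-UTR. That of Epm2a begins at base 1926 after the stop codon in a 3′-UTR of 2227 bases. Ugp2 held 2 further 6mers for miR-92b-3p, and Epm2a, Gyg and Nhlrc1 held 1 each. The 7mer of Gys1 for miR-92b-5p (letters CCGTCCC) was in 1 of 3 annotated 3′-UTRs, and 5.93% of the 13476 genes held a 7mer or 8mer for this miRNA. The 3′-UTRs of Gbe1, Stbd1 and Gys2 held 0 matches to either seed. A match of letters is a description and not a measured binding site, and binding was not measured in these libraries. For Ugp2 the study did a reporter experiment in C2C12 cells. It reports that a miR-92b-3p mimic lowered the activity of a reporter with the Ugp2 3′-UTR, but not with a mutated one. It also reports that the mimic lowered Ugp2 mRNA and protein in these cells.

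Of the 8 genes, 7 passed the filter on low counts, and 4 of the 7 (Ugp2, Stbd1, Gys1 and Gyg) were higher in M92KO muscle at an unadjusted p-value under 0.05, where 5.47% of all genes tested were. None of the 7 was lower at that threshold, where 6.92% of all genes were. The median log2 fold change (M92KO over WT) of the 7 genes was 0.35, against 0.00 over all genes tested. After adjustment over all genes tested, 0 of the 7 had an adjusted p-value under 0.05 in edgeR, and 2 of the 7, Ugp2 and Stbd1, had one in DESeq2's Wald test. The genotypes were fully separated, with M92KO above WT, in 3 of the 7 (Ugp2, Stbd1 and Gyg), as in 8.77% of all genes tested, and with M92KO below WT in 0 of the 7, as in 9.58% of all genes (18.4% in either direction). These 8 genes were chosen with earlier results of the same libraries known, so the counts describe them and are not independent evidence of a shared direction.

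**Figure D1:**
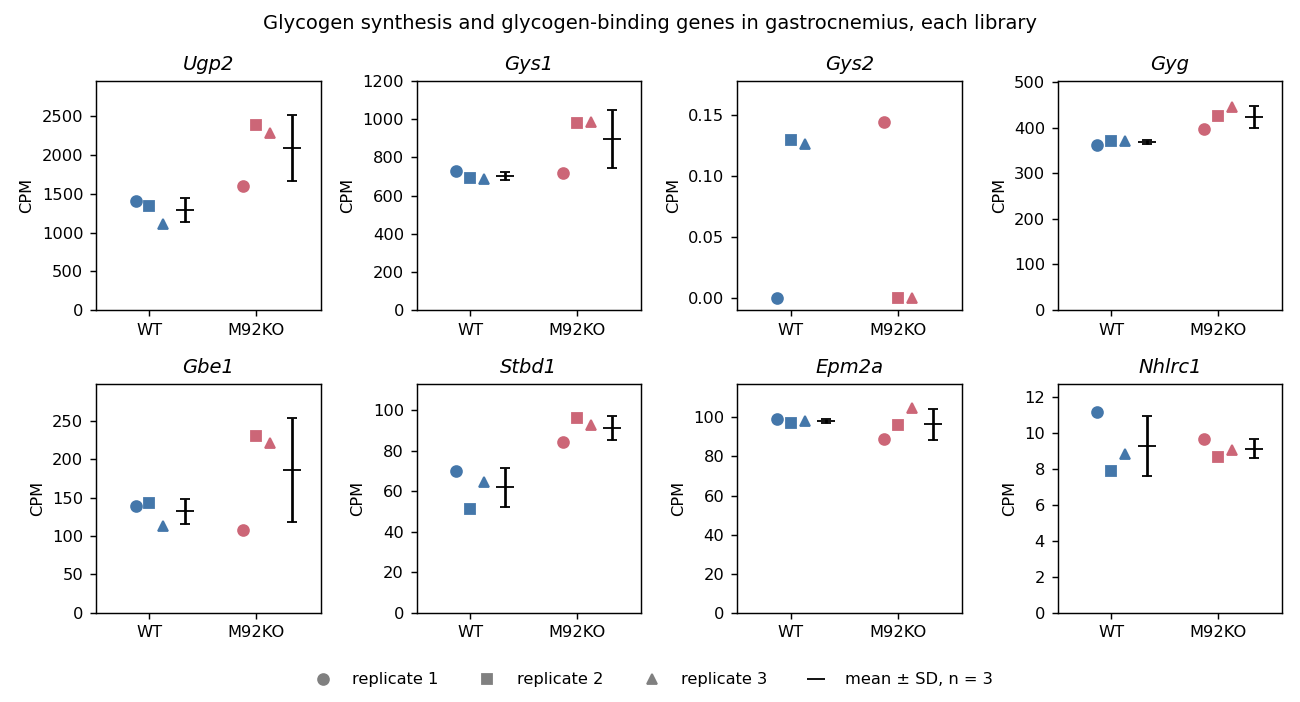
CPM of each of the 8 genes (y axis, from 0, own scale per gene; for Gys2 slightly below 0 so that its zeros show) in the 3 WT and 3 M92KO libraries, with the shape giving the replicate number and the black dash the mean ± SD (n = 3; not drawn for Gys2). The M92KO points of Ugp2, Gyg and Stbd1 lie above all WT points, and the first M92KO library (circle) lies among or below the WT points for Gys1 and Gbe1.

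Ugp2, which supplies UDP-glucose, had the largest fitted difference of the 7 genes. It lies on the minus strand at chr11:21321138-21371201 (GRCm38; ENSMUSG00000001891). Its levels were 1403, 1348 and 1117 CPM in the WT libraries and 1603, 2386 and 2287 CPM in the M92KO libraries. Each M92KO value was above each WT value, and the first M92KO library was much nearer to WT than the other two. The mean in M92KO muscle was 1.62 times that in WT as a ratio of CPM, and the fitted log2 fold change was 0.70 with a 95% interval of 0.34 to 1.06 (edgeR, adjusted p = 0.179; two-sided exact permutation test over the 6 libraries, p = 0.1, the smallest that 3 against 3 can give). Among the 15788 genes, Ugp2 ranked 162 by p-value. Its exons share 78 of 3069 bases (2.54%) with Gm12043 on the opposite strand, and the counting is not stated to have used strand.

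Gyg encodes glycogenin, which primes the chain, and lies on the minus strand at chr3:20122084-20155317 (ENSMUSG00000019528). Its levels were close together in the WT libraries, with 362, 371 and 371 CPM, and were 397, 426 and 444 CPM in the M92KO libraries. The groups did not overlap, although the difference was small. The log2 fold change of Gyg was 0.20 with a 95% interval of 0.04 to 0.36 (edgeR, adjusted p = 0.322; exact permutation test, two-sided p = 0.1). When each library was left out in turn, Gyg kept an unadjusted p-value under 0.05 in 1 of 6 fits, the one without the first M92KO library.

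Gys1 encodes the muscle glycogen synthase and lies on the plus strand at chr7:45434844-45456619 (ENSMUSG00000003865). Its levels were 727, 693 and 688 CPM in WT and 720, 982 and 984 CPM in M92KO libraries. The first M92KO library lay among the WT libraries, and the other two lay well above all of them. The log2 fold change of Gys1 was 0.35 with a 95% interval of 0.07 to 0.63 (edgeR, adjusted p = 0.314; exact permutation test, two-sided p = 0.2). When each library was left out in turn, Gys1 kept an unadjusted p-value under 0.05 in 2 of 6 fits, those without the first WT and the first M92KO library. Gys1 shares 310 of its 4789 exon bases (6.47%) with Ruvbl2, a gene on the opposite strand that stood at 34.8 CPM in WT and 38.4 CPM in M92KO muscle.

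Gys2 encodes the glycogen synthase of liver and lies on the minus strand at chr6:142422613-142473109 (ENSMUSG00000030244). It was close to undetected, with 0, 5 and 6 counts in the WT and 5, 0 and 0 counts in the M92KO libraries, and did not pass the filter. Over all libraries, 16 of 186142 counts on the 2 synthase genes were on Gys2 (0.0086%). In the 3 libraries without a count, the floor of 3 counts allows a Gys2 share of up to 0.0084% to 0.0093%. Muscle of both genotypes therefore held the Gys1 message almost alone at this depth. Of 5 hepatocyte markers, Apoa1, Ttr and Serpina1a were at or under 3 counts in every library, and 1, Cyp2e1, passed the filter (log2 fold change 0.92, edgeR adjusted p = 0.532). The summed level of the 5 markers was 1.55 to 3.54 CPM in WT and 2.37 to 8.49 CPM in M92KO muscle, ranges that overlapped, and Cyp2e1 made up most of it. The part of liver RNA in the Gys2 counts was not tested.

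Gbe1 encodes the branching enzyme and lies on the plus strand at chr16:70313949-70569716 (ENSMUSG00000022707). Its levels were 139.6, 143.6 and 113 CPM in WT and 108, 230.1 and 221 CPM in M92KO libraries. The M92KO group held both the lowest and the 2 highest of the 6 values, so that the groups overlapped. The log2 fold change was 0.50 with a 95% interval of -0.07 to 1.06 (edgeR, adjusted p = 0.472; exact permutation test, two-sided p = 0.4). The spread of Gbe1 among the M92KO mice was 36.3% of the mean, the widest of the 7 genes, against 12.5% in WT.

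Stbd1, whose product binds glycogen, had the smallest p-value of the 7 genes and ranked 90 among all genes tested. It lies on the plus strand at chr5:92603041-92606579 (ENSMUSG00000047963). Its levels were 70.1, 51.3 and 64.6 CPM in WT and 84.5, 96.4 and 92.9 CPM in M92KO libraries. The lowest M92KO value was above the highest WT value, and the M92KO libraries were close to each other. The log2 fold change of Stbd1 was 0.56 with a 95% interval of 0.30 to 0.82 (edgeR, adjusted p = 0.179; exact permutation test, two-sided p = 0.1). Ugp2 and Stbd1 kept an unadjusted p-value under 0.05 in 6 of the 6 fits that left out 1 library.

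Epm2a and Nhlrc1, which encode laforin and malin, showed differences near 0. Epm2a lies on the plus strand at chr10:11343404-11459644 (ENSMUSG00000055493) and had 99.3, 96.9 and 98.1 CPM in WT and 88.7, 96.1 and 104.6 CPM in M92KO libraries. The M92KO values lay on both sides of the WT values. The log2 fold change of Epm2a was -0.02 with a 95% interval of -0.19 to 0.15 (edgeR, adjusted p = 0.930; exact permutation test, two-sided p = 0.7). Epm2a and Ugp2 hold the same 8mer for miR-92b-3p, at different places in their 3′-UTRs, and their fitted intervals did not overlap. What part the 8mer has in the value of either gene was not tested. Nhlrc1, a gene of a single exon on the minus strand at chr13:47012557-47014850 (ENSMUSG00000044231), had 11.1, 7.90 and 8.80 CPM in WT and 9.68, 8.64 and 9.06 CPM in M92KO libraries. All 3 M92KO values lay within the range of the WT values. Its log2 fold change was -0.03 with a 95% interval of -0.34 to 0.29 (edgeR, adjusted p = 0.963; exact permutation test, two-sided p = 0.9). These intervals leave room for a difference of Nhlrc1 as large as that of Gyg in either direction, but not for one as large as the fitted value of Ugp2.

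The first M92KO library stood nearer to WT than the other two for most of these genes. It also had the lowest of the 3 M92KO values in 6 of the 7 genes, the exception being Nhlrc1, while it was the lowest in 38.3% of all genes tested. The lowest is not always the nearest to WT: for Epm2a this library, at 88.7 CPM, lay below all WT libraries. For Ugp2 it stood at 1.24 times the WT mean, against 1.81 times for the mean of the other two. For Gbe1 these ratios were 0.821 and 1.71, and for Gys1 1.02 and 1.40. The glycogen binder Stbd1 differed less between the libraries, at 1.36 times the WT mean in the first and 1.53 times in the other two. Because the first M92KO library was singled out by its low values of these same genes, leaving it out had to raise most of their differences. Without the first M92KO library, 5 of the 7 genes were higher with an adjusted p-value under 0.05 in edgeR. They were Gys1 (adjusted p = 0.0063), Ugp2 (0.0067), Gbe1 (0.0104), Stbd1 (0.0444) and Gyg (0.0489). In that fit 401 of 16058 genes (2.5%) had an adjusted p-value under 0.05, 291 of them (1.81%) higher in M92KO muscle. Gbe1 then had a log2 fold change of 0.77, Ugp2 one of 0.86 and Gys1 one of 0.48, while Epm2a stood at 0.03 and Nhlrc1 at -0.07. Each of the other fits that left out 1 library placed 0 of the 7 below that adjusted threshold. The adjusted p-values without the first M92KO library therefore describe that choice and are not independent evidence of a difference. Of the 6 libraries, the first M92KO library had the lowest summed level of the fibroblast markers (1151 CPM) and of the slow-fibre markers (127 CPM). It was also the lowest for the macrophage and leukocyte markers (64.7 CPM) and the endothelial markers (677 CPM). It was not the lowest for the fast-fibre, fat cell, red cell, Schwann cell or hepatocyte markers. The part of these cells in its lower glycogen genes was not tested. No label sets this library apart.

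**Figure D2:**
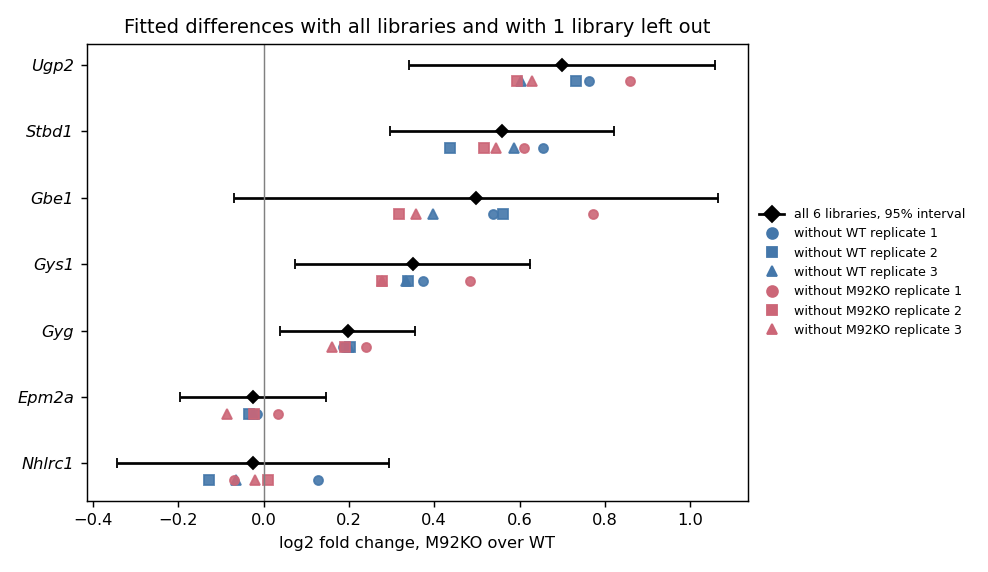
Log2 fold change (M92KO over WT, x axis) of the 7 genes that passed the filter. Black diamonds with bars are the fit to all 6 libraries with its 95% interval, and coloured points below are the fits that each leave out 1 library. Leaving out M92KO replicate 1 (red circle) gave the highest value for Ugp2, Gbe1, Gys1, Gyg and Epm2a, up to 0.86 for Ugp2, while the points of Epm2a and Nhlrc1 lie around 0.

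To compare levels between genes, CPM were divided by the length in kilobases of the union of each gene's annotated exons. On this scale Ugp2 was the most abundant of the 8 genes in every library, at 420.0 ± 49.5 CPM per kilobase (SD, n = 3) in WT and 682 ± 139 in M92KO muscle. Gyg followed at 157 ± 2.14 in WT and 180 ± 10.2 CPM per kilobase in M92KO muscle, and Gys1 at 147 ± 4.41 and 187 ± 31.7. Gyg was above Gys1 in 4 of the 6 libraries, all 3 WT libraries and the first M92KO library, so the order of the primer and the synthase was the reverse in the other two M92KO libraries. A second tier held Epm2a at 29.8 ± 0.356, Stbd1 at 27.9 ± 4.37 and Gbe1 at 24.7 ± 3.08 CPM per kilobase in WT muscle. The WT ranges of Epm2a and Stbd1 overlapped, as did those of Stbd1 and Gbe1. In M92KO muscle the order of this tier was Stbd1 at 41.1 ± 2.74, Gbe1 at 34.8 ± 12.7 and Epm2a at 29.3 ± 2.43, with Stbd1 above Epm2a in 3 of 3 libraries. Nhlrc1 stood at 4.05 ± 0.732 in WT and 3.98 ± 0.226 CPM per kilobase in M92KO muscle, below the second tier in every library, and Gys2 was last. Lengths were taken over all annotated transcripts, so values of genes that lie close together can change order with the transcript that is used.

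**Figure D3:**
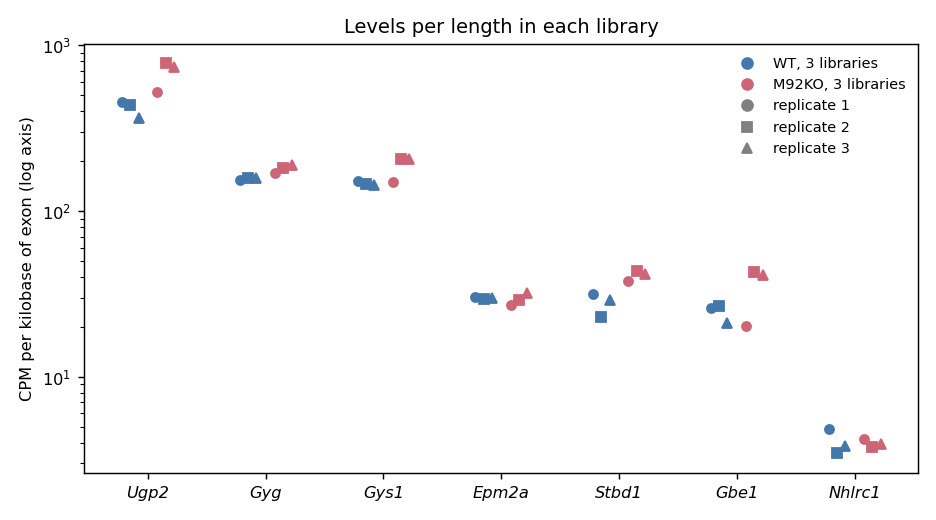
Level per length (CPM per kilobase of exon, log axis) of 7 genes in each library, with WT in blue and M92KO in red and the shape giving the replicate number; Gys2 is left out because it had no count in 3 of the 6 libraries. Ugp2 is on top at 364 or more in every library, Gyg and Gys1 lie between 144 and 206, and Nhlrc1 lies below 5 in every library.

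Ratios between genes within a library do not depend on how libraries are scaled to each other. The exact two-sided permutation test was applied to the log2 ratios, with p-values adjusted over 7 ratios. The ratio of Ugp2 to Gys1 was 1.93, 1.94 and 1.62 in WT and 2.23, 2.43 and 2.32 in M92KO libraries, so the message for the UDP-glucose enzyme was more abundant relative to that for the synthase in every M92KO library, without overlap between the groups. The difference was 0.35 on the log2 scale (exact permutation p = 0.1, adjusted p = 0.233). The first M92KO library was close to the other two on this scale, unlike its Ugp2 level. The ratio of Epm2a to Gys1 was 0.137, 0.140 and 0.143 in WT and 0.123, 0.0978 and 0.106 in M92KO libraries, a difference of -0.36 on the log2 scale without overlap (exact permutation p = 0.1, adjusted p = 0.233). Pygm encodes the muscle phosphorylase, which breaks glycogen down. Against Pygm, Ugp2 stood at 0.210, 0.188 and 0.140 in WT and 0.219, 0.364 and 0.335 in M92KO libraries, a log2 difference of 0.76 (exact permutation p = 0.1, adjusted p = 0.233). This ratio also did not overlap, although the first M92KO library lay just above the highest WT library. The other four ratios, of Gyg, Gbe1 and Stbd1 to Gys1 and of Gys1 to Pygm, overlapped between the groups, with log2 differences of -0.14, 0.09, 0.23 and 0.41 and exact permutation p-values of 0.2 to 0.7 (adjusted, 0.28 to 0.7).

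**Figure D4:**
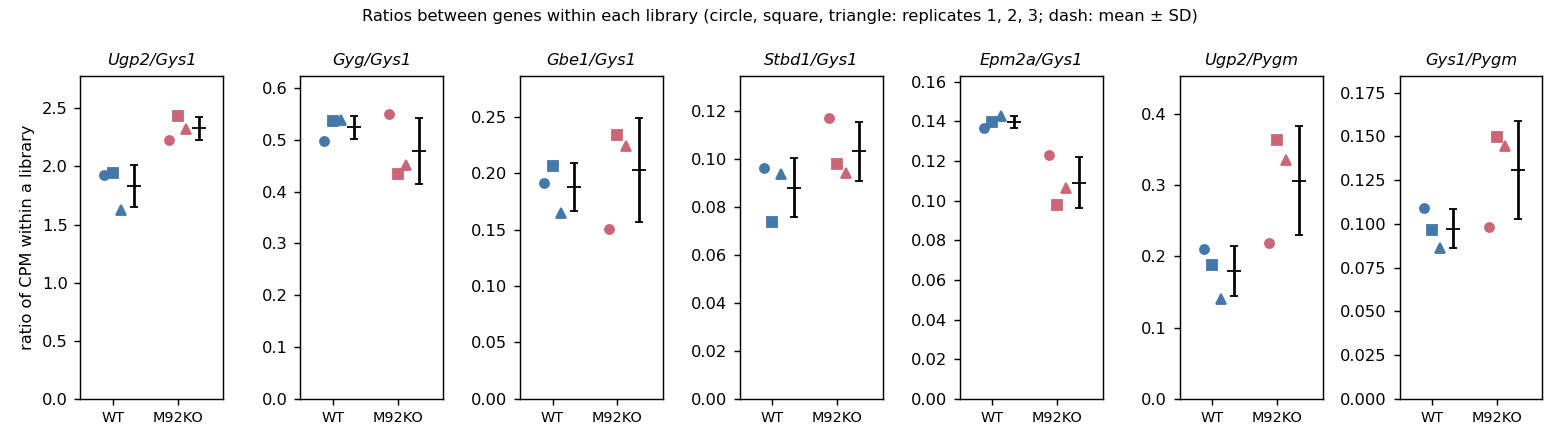
Ratio of CPM between 2 genes within each library (y axis, from 0) for 7 pairs, with WT in blue, M92KO in red, the shape giving the replicate number and the dash the mean ± SD (n = 3). Ugp2/Gys1 and Ugp2/Pygm are higher and Epm2a/Gys1 is lower in all 3 M92KO libraries than in every WT library, and the other four ratios overlap.

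The other genes of the pathway were described from lists written by role. Of 4 genes of glucose entry, 3 were higher in M92KO muscle at an unadjusted p-value under 0.05, where 5.47% of all genes tested were. They were the transporter genes Slc2a4 and Slc2a1 and the hexokinase gene Hk2, and the list had a median log2 fold change of 0.37. Slc2a4, which encodes the insulin-responsive transporter GLUT4, stood at 852, 805 and 799 CPM in WT and 1036, 1074 and 998 CPM in M92KO libraries. The groups of Slc2a4 did not overlap, with M92KO above WT, as in 8.77% of all genes tested. Its first M92KO library lay between the other two. Hk2, which traps glucose in the fibre, had 495, 463 and 439 CPM in WT and 456, 715 and 720.1 CPM in M92KO libraries. Its first M92KO library lay among the WT libraries, as for Gys1. The log2 fold changes were 0.34 for Slc2a4, 0.40 for Slc2a1 and 0.44 for Hk2 (edgeR, adjusted p = 0.179, 0.193 and 0.343).

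The lists that use UDP-glucose or break glycogen down stayed near the median of all genes. The list of UDP-glucose supply and use had a median log2 fold change of -0.07, and 0 of its 10 genes were lower in edgeR at an unadjusted p-value under 0.05. The phosphoglucomutase gene Pgm1, which had 1294 CPM in WT and 1234 CPM in M92KO muscle, had a log2 fold change of -0.07. Of 10 genes of glycogen breakdown, 0 were higher and 0 lower in edgeR at an unadjusted p-value under 0.05, with a median of 0.00, and Pygm had a log2 fold change of -0.08. Of 9 tested genes for protein phosphatase 1 and its glycogen-targeting subunits, 1 was lower, Ppp1r3d, at 2.24 ± 0.156 CPM in WT and 1.64 ± 0.109 CPM in M92KO muscle (log2 fold change -0.45, edgeR adjusted p = 0.361). Of 12 genes for kinases of glycogen synthase, 1 was higher, Prkag2, a regulatory subunit of AMP-activated kinase (log2 fold change 0.31, edgeR adjusted p = 0.349). Of 4 genes of glycophagy and polyglucosan control, 1 was lower, Rbck1, which encodes a ubiquitin ligase (log2 fold change -0.15, edgeR adjusted p = 0.390). The medians of these last 3 lists were 0.01, 0.07 and 0.05. At an unadjusted p-value under 0.05 in edgeR, 5.47% of all genes tested were higher and 6.92% lower in M92KO muscle. The single genes named here are therefore not read as results about their lists.

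**Figure D5:**
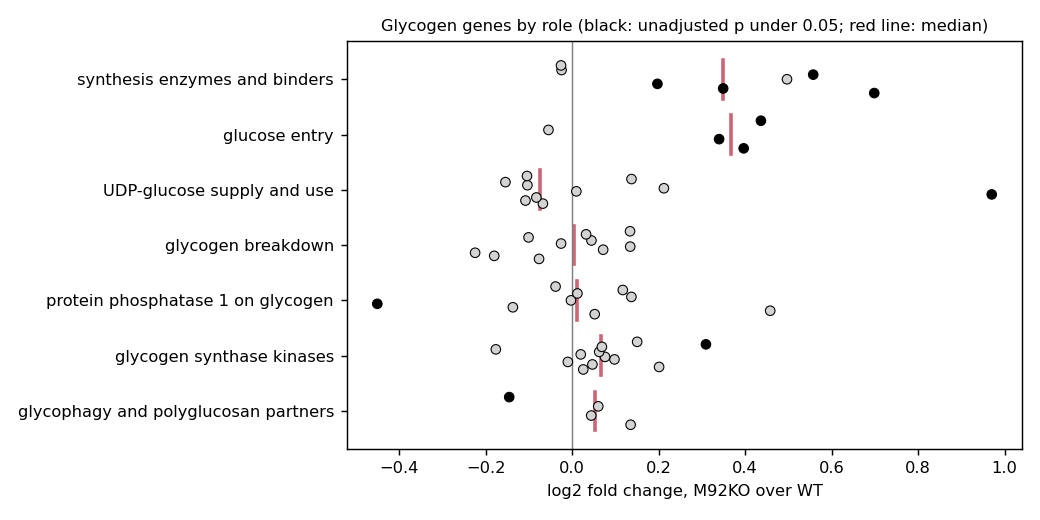
Log2 fold change (M92KO over WT, x axis) of each tested gene, grouped by role (rows; vertical position within a row only separates the points). Black points have an unadjusted p-value under 0.05 in edgeR, grey points do not, and the red line is the median of the row. The medians of the synthesis and binding genes (0.35) and of glucose entry (0.37) lie to the right of those of the other lists, which run from -0.07 to 0.07.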

How the data were processed

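RNA from Gas muscle of 3 WT and 3 M92KO mice was sequenced as 6 libraries (SMARTer kit, per the labels). The authors deposited raw counts per gene symbol, without normalization, with 1 column per library. The submitters' processing notes name GRCm 38 (mm 10); the aligner, counting program, annotation and use of strand are not given in the sources used here. Counts were filtered with filterByExpr (minimum count 10, minimum total count 15), scaled with TMM and tested with edgeR 4.0.16 in R 4.3.3 without a covariate. Intervals came from the same fit. Adjustment (Benjamini-Hochberg) covered the 15788 genes tested. The test was checked on simulated counts with a spread shared by all genes and known changes larger than the fitted values of these genes. Differences of their size were therefore not covered by that check. Alternatives were DESeq2 1.42.0 (size factors or Wald test), no filter, at least 10 counts per library, the study's own steps (quantile normalization, log2, limma 3.58.1), a replicate block and each library left out. Positions and 3′-UTRs came from GENCODE M21 (GRCm38), which matched 25731 of 34714 symbols and all 8 genes, and miRNA sequences from RefSeq. Python 3.11.15 made ratios and figures. The 8 genes, the lists and the tests were chosen with earlier results of these data known. All 8 genes are named, with up to 4 genes per other list at an unadjusted p-value under 0.05 (smallest first), of which 1 is not reported here, the 5 genes most like Ugp2, overlapping genes, and Pgm1 and Pygm, chosen after their values were seen.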

Additional observations from a re-analysis of the deposited data

How the results depend on the processing

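Ugp2 and Stbd1 kept their direction and an unadjusted p-value under 0.05 in all 12 alternatives, with log2 fold changes of 0.58 to 0.86 and 0.44 to 0.66 and adjusted p-values of 0.000965 to 0.555 and 0.0019 to 0.555. The number of genes with an adjusted p-value under 0.05 was 0 in the edgeR fit, 322 with DESeq2's Wald test (2 of the 7 genes among them), 6 without a filter on low counts, 42 with the steps of the study's methods and 2 with the replicate block. With 1 library left out it ran from 0 to 401, and from 0 to 5 among the 7 genes, with the upper end in each case from the fit without the first M92KO library. The number with an unadjusted p-value under 0.05 then ran from 1222 (without the second WT library) to 2984 (without the first M92KO library), those higher from 531 to 1545, and the higher ones among the 7 genes from 2 to 5. Without a filter, Gbe1 (log2 fold change 0.49) passed the unadjusted threshold, and with the study's steps Gys1 (0.31) missed it and Nhlrc1 changed sign (0.024); the causes were not tested. With a library left out, the log2 fold change ran from 0.28 to 0.48 for Gys1, from 0.16 to 0.24 for Gyg, from 0.32 to 0.77 for Gbe1, from -0.087 to 0.033 for Epm2a and from -0.13 to 0.13 for Nhlrc1. Gys1 lost its unadjusted p-value under 0.05 without WT replicate 2 or 3 or M92KO replicate 2 or 3 (0.34, 0.33, 0.28 and 0.28), and the number of all genes under it was 1272 without WT replicate 3. Epm2a changed sign without the first M92KO library (0.033), and Nhlrc1 without the first WT (0.13) and the second M92KO library (0.011). The log2 ratio of Ugp2 to Gys1 ran from 0.26 to 0.39, that of Epm2a to Gys1 from -0.45 to -0.29 and that of Ugp2 to Pygm from 0.59 to 0.98.

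The genotypes share replicate numbers, but same-numbered libraries deviated together only weakly (correlations of deviations of 0.08, 0.04 and 0.02 for replicates 1, 2 and 3). Every library except WT replicate 3 correlated best with its own number. WT replicate 3 had a correlation of 0.036 with M92KO replicate 2 and of 0.015 with M92KO replicate 3. The correlations were weak, and same-numbered libraries were taken to share only a number. With the replicate block, 1691 genes had an unadjusted p-value under 0.05, 3 of the 7 genes were higher at that threshold, and Gyg (log2 fold change 0.20) missed it. All p-values rest on 3 libraries per genotype, and depth limits Gys2 alone among the 8 genes.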

Other observations

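The genes whose levels over the 6 libraries were most like those of Ugp2 were sought among the other 4918 genes with a mean of at least 32 CPM, by the root mean square difference of log2 CPM after each gene was centred on its own mean. The nearest were Hspb6, which encodes a small heat shock protein (0.067), Apol6 (0.096), Atp1b1, which encodes a subunit of the sodium pump (0.110), Diaph1, which encodes a formin (0.110), and Plpp1, which encodes a lipid phosphatase (0.113). Hspb6 had 863, 855 and 782 CPM in WT and 1023, 1643 and 1468 CPM in M92KO libraries, and so had the same order of libraries within M92KO muscle as Ugp2. The log2 fold changes of these 5 genes lay between 0.54 and 0.73, with adjusted p-values of 0.179 to 0.258 in edgeR. The likeness includes the difference between genotypes and rests on 6 libraries.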
